A study of Mus musculus with 4 samples.

Results

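The data describe 40 genes of the cell division cycle, out of 32285 genes counted, in single cells of irradiated and shielded mouse hindlimbs. The genes were chosen by name: 17 act in or before DNA replication (S-phase members), 21 act in mitosis (mitotic members), and Stmn1 and Hmgb2 belong to no single phase. Their unique molecular identifiers (UMIs, each standing for 1 captured transcript) were summed over barcodes that passed 3 limits: 200 genes or more, 500 UMIs or more, and no more than 20% of UMIs from mitochondrial genes. The S-phase members collected 14510 UMIs and the mitotic members 20824 UMIs in 6544 such cells, and every one of the 40 genes had UMIs in each of the 4 libraries.

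The animals were male C57Bl/6J mice. One hindlimb received 3 fractions of 8.2 Gy of X-rays at an age of 5 weeks (IR), and the opposite, lead-shielded hindlimb of the same animals was the control (CON), so the controls come from irradiated mice. Limbs were taken 24 hours after the last fraction or 56 days after irradiation, digested with enzymes, pooled by 3 limbs for each group and sorted as live, Hoechst-positive cells, and each group became 1 droplet library. The 4 groups are CON 24 h, IR 24 h, CON 56 d and IR 56 d, and values in sets of 4 follow that order.

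With 1 library for each group there is no replicate check, no test between groups was made, and a difference in cell number cannot be separated from a difference between preparations. Kept cells numbered 1336, 2539, 1700 and 969, with 6026307, 9751722, 8563823 and 4543545 UMIs and medians of 3468, 3057, 3627 and 3465 UMIs per cell. Any 2 libraries shared 1 to 3 cell barcodes. A level is the summed UMIs of a gene or list per 1000000 UMIs of the cells named (CPM). Intervals in parentheses are 95% exact intervals that cover counting error alone. UMIs of these genes sit together in few cells, so an interval over UMIs is too narrow for a statement about cells, and the number of cells and the share held by 1 cell are given where they matter.

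A cell that divides first copies its DNA, using the MCM helicase that Mcm2 to Mcm7 encode, the sliding clamp PCNA and nucleotide-making enzymes such as ribonucleotide reductase and thymidylate synthase. It then condenses and separates its chromosomes under the kinase CDK1 with cyclins A and B, motor proteins and the spindle checkpoint. E2F factors switch on many replication genes, and the MuvB complex with B-MYB and FOXM1 switches on many mitotic genes, which makes transcripts of both kinds markers of dividing cells. Resting muscle contains few dividing cells, whereas bone marrow produces blood cells continuously. After DNA damage, p53 induces the inhibitor p21 (Cdkn1a), and PCNA is also a p53 target that serves in DNA repair.

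The promoters below show the sequence features by which the lists differ. They were picked because the searched letters occur in them, in 2 S-phase members (Mcm5 and Mcm6, helicase subunits) and 4 mitotic members (the proliferation antigen Mki67, the ubiquitin-conjugating enzyme Ube2c, the kinase Cdk1 and the checkpoint target Cdc20). Each line gives the 160 bases that end just before the gene's start as RefSeq lists it on GRCm38.p6, 5′ to 3′ on the gene's strand. Capitals mark either of 2 searched motifs. The E2F motif was searched as TTTCCCGC, TTTGGCGC, TTTCGCGC and TTTGCCGC, and the cell cycle homology region (CHR) as TTTGAA, on both strands, and neighbouring E2F matches overlap in Mcm5 and Mcm6.
Mcm5: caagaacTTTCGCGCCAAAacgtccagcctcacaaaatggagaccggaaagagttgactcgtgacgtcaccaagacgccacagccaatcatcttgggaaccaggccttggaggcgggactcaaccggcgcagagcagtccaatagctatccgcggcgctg
Mcm6: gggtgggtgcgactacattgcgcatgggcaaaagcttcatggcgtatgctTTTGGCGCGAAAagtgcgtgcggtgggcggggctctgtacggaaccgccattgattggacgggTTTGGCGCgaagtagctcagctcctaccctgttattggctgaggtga
Mki67: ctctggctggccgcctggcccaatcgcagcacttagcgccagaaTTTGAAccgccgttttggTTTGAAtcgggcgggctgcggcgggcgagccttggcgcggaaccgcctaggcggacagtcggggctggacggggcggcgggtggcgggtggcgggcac
Ube2c: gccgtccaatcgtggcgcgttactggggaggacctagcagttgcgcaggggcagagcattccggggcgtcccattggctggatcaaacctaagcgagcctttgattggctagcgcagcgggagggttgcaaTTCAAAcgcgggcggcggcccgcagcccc
Cdk1: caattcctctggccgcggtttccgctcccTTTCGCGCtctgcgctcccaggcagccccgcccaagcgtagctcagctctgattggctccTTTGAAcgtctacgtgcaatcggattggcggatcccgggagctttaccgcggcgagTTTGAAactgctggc
Cdc20: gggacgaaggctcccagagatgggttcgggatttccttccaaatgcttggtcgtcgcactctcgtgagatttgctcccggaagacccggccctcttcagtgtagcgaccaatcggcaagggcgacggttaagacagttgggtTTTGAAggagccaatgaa

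The genes' chromosomes and the strands are those of RefSeq. The printed stretches lie at chr8:75109349-75109508 (plus strand, Mcm5), chr1:128359706-128359865 (minus, Mcm6), chr7:135716380-135716539 (minus, Mki67), chr2:164769769-164769928 (plus, Ube2c), chr10:69352913-69353072 (minus, Cdk1) and chr4:118437344-118437503 (minus, Cdc20). Matches start 153 and 149 bases before the gene's start in Mcm5, and 110, 106 and 47 bases before it in Mcm6. The CHR letters start 116 and 98 bases before the start of Mki67, 29 before that of Ube2c and 18 before that of Cdc20. Cdk1 holds the CHR letters 71 and 15 bases before its start and an E2F match 131 bases before it.

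Promoter windows from 250 bases before to 50 after a listed start were found for 33 of the 40 members. The CHR letters occurred in 14 of 18 mitotic members with a window (77.8%) and in 1 of 14 S-phase members (7.14%, Mcm2), against 20.2% of 27025 genes. The E2F letters occurred in 7 of 14 S-phase members (50.0%) and in 1 of 18 mitotic members (5.56%, Cdk1), against 2.61% of genes. CCAAT, searched on both strands, occurred in 10 of 14 S-phase and 16 of 18 mitotic members, 71.4% and 88.9%, against 41.1% of genes. A gene was counted if any listed window held the letters. These counts describe letters in a window and not bound sites.

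Transcripts of the members were found mostly in cells that resemble bone marrow cells. Cells were assigned to a class where at least 3 distinct markers of that class and of no unrelated class had a UMI, and the class names carry "-like" because no protein or position was measured. The erythroid-like, B precursor-like, myeloid progenitor-like and neutrophil-like classes, together called marrow-type here, made up 598 of the 6544 cells (9.14%). They held 84.7% of the mitotic UMIs and 60.7% of the S-phase UMIs. The erythroid-like class alone, with 170 cells, held 56.9% and 39.4%. Endothelial-like cells, the class with the most cells (3166), held 2.46% of the mitotic and 17.1% of the S-phase UMIs. The labels do not say whether bone was left in the digested limbs.

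**Figure D1:**
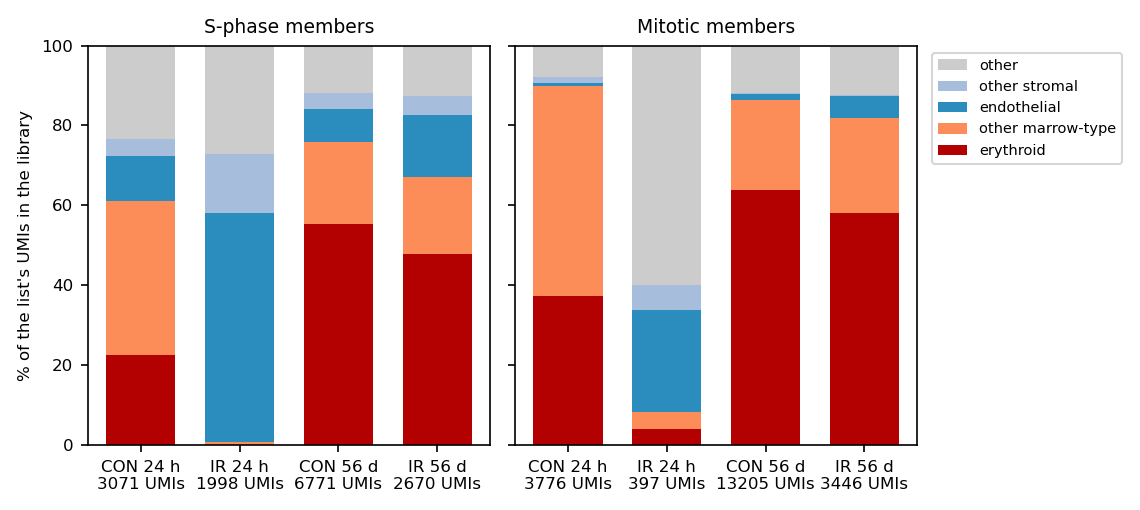
Percent of each library's S-phase (left) and mitotic (right) UMIs by class of cell; each bar is 1 library and its total UMIs stand under it. Marrow-type classes hold 89.8%, 86.3% and 81.8% of mitotic UMIs in CON 24 h, CON 56 d and IR 56 d, against 8.31% in IR 24 h.

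Marrow-type cells made up different shares of the 4 libraries. They were 145, 40, 343 and 70 cells, or 10.9%, 1.58%, 20.2% and 7.22% of kept cells. In IR 24 h 35 of the 40 were neutrophil-like, with 2 erythroid-like, 3 B precursor-like and 0 myeloid progenitor-like cells, against 49, 60 and 7 in CON 24 h. Neutrophil-like cells of CON 24 h numbered 29. At 56 days the neutrophil-like cells numbered 226 in CON and 18 in IR, and the erythroid-like cells 90 and 29. The B precursor-like cells were 15 and 20, and the myeloid progenitor-like cells 12 and 3. Whether irradiation or the dissection set these numbers cannot be told apart with 1 library for each group.

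Over all kept cells, both lists were lower in the irradiated library at both times, the mitotic list by more. S-phase members had 510, 205, 791 and 588 CPM. Mitotic members had 627, 40.7, 1542 and 758 CPM. The level in IR over CON at 24 hours was 0.402 (0.380 to 0.425) for S-phase and 0.0650 (0.0584 to 0.0721) for mitotic members, and at 56 days 0.743 (0.710 to 0.777) and 0.492 (0.474 to 0.511). With the 4 marrow-type classes left out, the mitotic ratio at 24 hours was 0.475 (0.410 to 0.549) and the S-phase ratio 0.837 (0.779 to 0.900). At 56 days the same ratios were 0.497 (0.453 to 0.545) and 0.767 (0.706 to 0.833), close to those of all kept cells. Few cells held most mitotic UMIs outside marrow-type classes in CON 56 d. Mixed cells, with markers of unrelated classes, had 894, 98.4% of them in 5 cells. Macrophage or monocyte-like cells had 382, 96.6% in 4 cells, and mature B-like cells 266, 97.4% in 3 cells. In stromal cells (vessel, connective tissue, muscle stem and Schwann-like classes together) the mitotic ratio at 56 days was 1.22 (1.01 to 1.48). Across all kept cells without any that had 3 or more mitotic members, the S-phase ratio was 0.957 (0.887 to 1.03) at 24 hours and 1.07 (0.975 to 1.18) at 56 days.

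Over all kept cells at 24 hours, 37 of 40 members were at least 1.5-fold lower in IR and 0 at least 1.5-fold higher, where 10.8% of 13951 measured genes were that much lower and 34.1% higher. A gene counted as measured with at least 20 UMIs over both libraries. The 40 members were chosen with earlier results of these data known, so counts of members are no independent evidence. The 3 members within 1.5-fold were Pcna, Rrm1 (a ribonucleotide reductase subunit) and Cdc6 (a loader of the MCM helicase), with ratios of 0.710, 0.881 and 0.840. The median log2 ratio was -3.73 over the mitotic members and -1.48 over the S-phase members, against 0.35 over all measured genes. At 56 days 23 of 40 were at least 1.5-fold lower, against 12.5% of 13687 genes, and 0 higher, against 17.3%. Of these 23, 16 were mitotic members, 6 were S-phase members and the other was Hmgb2. The medians were -0.98 for mitotic and -0.41 for S-phase members, against 0.11 over all genes. Cells that had at least 3 S-phase members, Pcna not counted, or at least 3 mitotic members were then left out. Without them 22 members were measured at 24 hours, with 5 lower and 3 higher, and 17 at 56 days, with 4 lower.

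Mki67 (ENSMUSG00000031004, chromosome 7, 135689784 to 135716361 on mm10), whose product coats mitotic chromosomes, had the most UMIs of the mitotic members. It had 505, 25, 2500 and 406 UMIs in 60, 5, 119 and 37 cells, or 83.8, 2.56, 292 and 89.4 CPM. It was highest in CON 56 d and close to absent in IR 24 h, and its ratio was 0.0306 (0.0196 to 0.0457) at 24 hours and 0.306 (0.275 to 0.340) at 56 days. Ube2c (ENSMUSG00000001403, chromosome 2, 164769898 to 164778822), which helps the anaphase-promoting complex degrade cyclins, had 542, 32, 1542 and 509 UMIs in 71, 16, 120 and 39 cells, or 89.9, 3.28, 180 and 112 CPM. Top2a, the topoisomerase that untangles sister chromosomes, had 414, 41, 1385 and 339 UMIs in 52, 15, 103 and 35 cells, or 68.7, 4.20, 162 and 74.6 CPM. All 3 had their highest level in CON 56 d and their lowest in IR 24 h.

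Among the S-phase members with most UMIs, Pcna stood apart from Rrm2 and Pclaf. Pcna (ENSMUSG00000027342, chromosome 2, 132249162 to 132253314) had 550, 632, 1010 and 487 UMIs in 274, 509, 325 and 215 cells, or 91.3, 64.8, 118 and 107 CPM, so that IR 24 h was lowest but within 1.5-fold of its control, at 0.710 (0.632 to 0.798). Rrm2 (ENSMUSG00000020649, chromosome 12, 24708241 to 24714146), the ribonucleotide reductase subunit made in S phase, had 369, 32, 1005 and 333 UMIs in 49, 22, 93 and 30 cells, or 61.2, 3.28, 117 and 73.3 CPM. Pclaf, a PCNA-binding protein, had 446, 74, 806 and 299 UMIs in 73, 53, 109 and 48 cells, or 74.0, 7.59, 94.1 and 65.8 CPM. Rrm2 and Pclaf in IR 24 h were at 0.0536 (0.0361 to 0.0770) and 0.103 (0.0791 to 0.131) of the control, in the range of the mitotic members.

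Stmn1, which destabilises microtubules, had 1396, 690, 1830 and 861 UMIs, or 232, 70.8, 214 and 189 CPM. Hmgb2, a chromatin protein abundant in dividing cells, had 4472, 1575, 11701 and 3306 UMIs, or 742, 162, 1366 and 728 CPM. Both were lowest in IR 24 h. Their UMIs were spread over more cells than those of Mki67, Ube2c and Top2a, 586, 794, 815 and 377 cells for Hmgb2.

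At 24 hours the interval of the ratio lay wholly below a 1.5-fold decrease for 11 of 17 S-phase and 21 of 21 mitotic members and for Stmn1 and Hmgb2. The lowest ratio was that of Ccnb2, a mitotic cyclin, at 0.0161 (0.00517 to 0.0382), with 192 and 5 UMIs. The highest of the mitotic members was Kif23, a motor of the dividing spindle, at 0.406 (0.298 to 0.551), with 111 and 73 UMIs in 52 and 61 cells. At 56 days the interval lay wholly below for Mcm4 at 0.434, for 12 mitotic members and for Hmgb2 at 0.533. Of these the mitotic members ran from Mki67 at 0.306 and Hmmr, a spindle protein, at 0.307 to Ccna2, cyclin A2, at 0.505. The mitotic cyclins Ccnb1 and Ccnb2 at 0.913 and 0.829, and Cdk1 at 0.706, were closer to their control.

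Each member was then compared between marrow-type and endothelial-like cells, with both control libraries summed. Mitotic members were 62.7-fold higher in marrow-type cells at the median, from 11.1-fold for Kif23 to 342-fold (133 to 1257) for Birc5, the survivin subunit of the chromosomal passenger complex, and 21 of 21 were at least 10-fold higher. In the endothelial-like control cells, 1 cell of CON 56 d held 29 of 33 Mki67 UMIs and 29 of 32 Top2a UMIs. The folds of these 2 genes rest largely on that cell. S-phase members were 10.2-fold higher at the median, and 9 of 17 reached 10-fold. The S-phase members covered a wide range. Pcna, Mcm6, Mcm3, Mcm4, Rrm1, Mcm7, Cdc6 and Tyms were 3.42-fold to 5.94-fold higher. Ccne1, Uhrf1, Tk1 and Rrm2, which encode cyclin E1, a maintenance factor of DNA methylation, thymidine kinase and the S-phase reductase subunit, were 86.9-fold to 162-fold higher and had 2, 2, 2 and 8 UMIs in the endothelial-like control cells. Mcm2, Mcm5, Ccne2, Gins2 and Pclaf lay between, at 10.2-fold to 33.7-fold. Stmn1 was 11.2-fold and Hmgb2 18.3-fold higher.

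**Figure D2:**
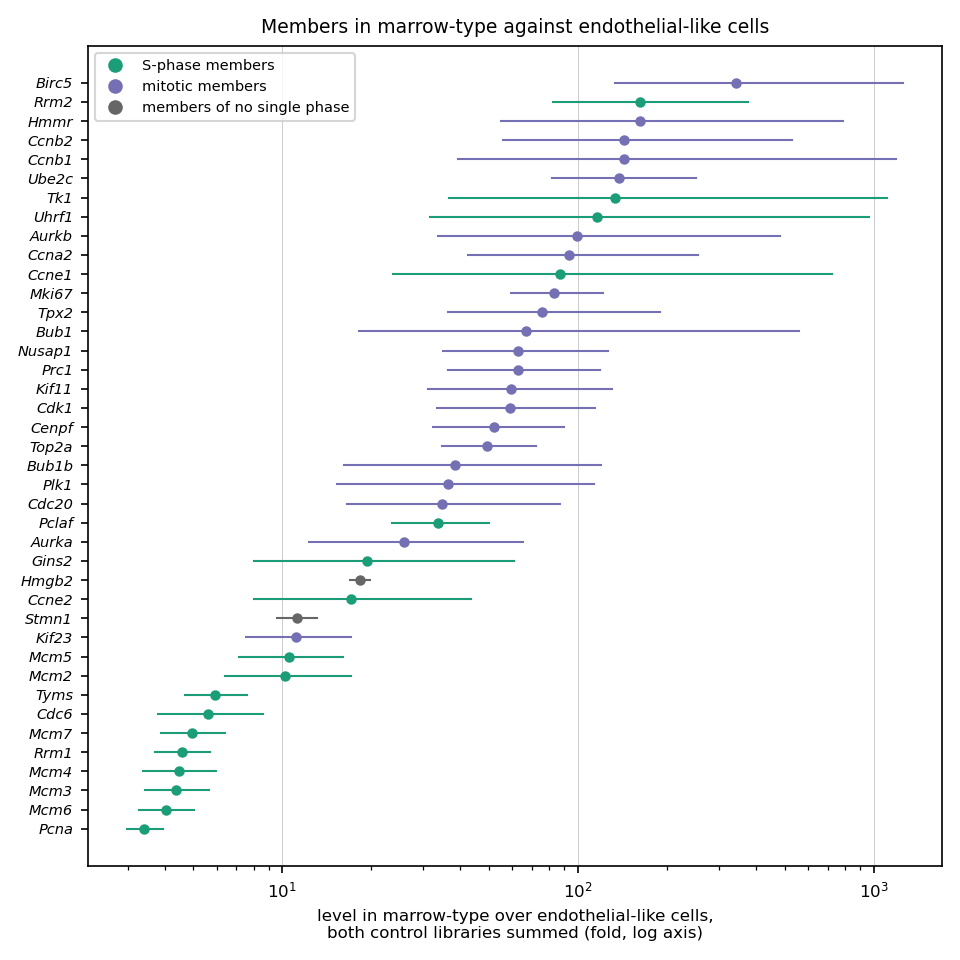
Level of each of the 40 members in marrow-type over endothelial-like cells in both control libraries summed, on a log axis; points are folds and lines 95% counting intervals. Mitotic members lie between 11.1-fold and 342-fold, and 8 S-phase members lie below 6-fold. In CON 56 d 1 endothelial-like cell held 143 of the 190 mitotic UMIs of that class.

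The 2 reductase subunits show the same contrast within 1 enzyme. Rrm1 had 111 UMIs in endothelial-like and 495 in marrow-type control cells, 26.0 and 119 CPM. Rrm2 had 8 and 1261 UMIs, 1.87 and 304 CPM. Of all UMIs of Rrm2 in the 4 libraries 90.9% lay in marrow-type classes, against 50.7% for Rrm1 and 41.4% for Pcna. The S-phase sum is a level and not a count of cells in S phase.

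**Figure D3:**
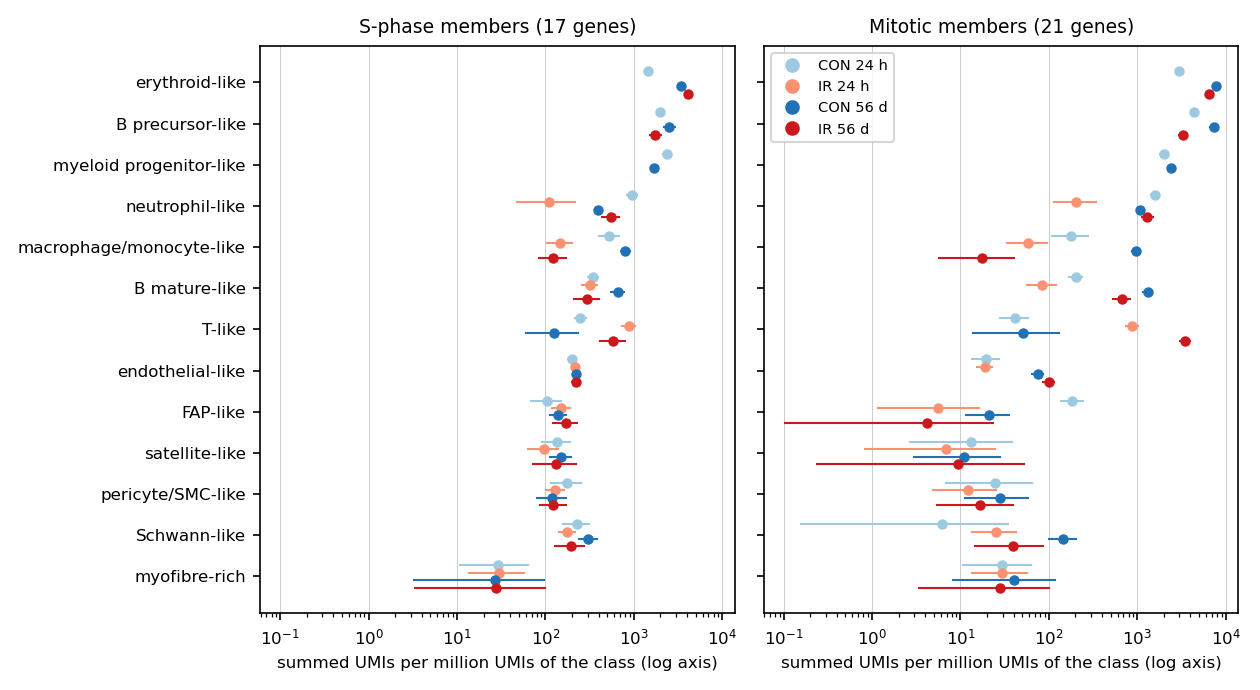
Summed level of the 17 S-phase members (left) and the 21 mitotic members (right) in each class and library with at least 5 cells and a UMI, in CPM of the class on a log axis; lines are 95% counting intervals. S-phase levels of the stromal and endothelial-like classes lie between 96.0 and 305, and mitotic levels spread from 4.14 to 185 in them and reach 7751 in erythroid-like cells.

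Endothelial-like cells, recognised by vessel markers such as Pecam1, had S-phase levels in IR and CON that did not differ beyond counting error, and had almost no mitotic transcripts at 24 hours. In 461, 1477, 763 and 465 cells, S-phase members had 200, 215, 225 and 220 CPM. The ratio was 1.07 (0.95 to 1.21) at 24 hours and 0.979 (0.861 to 1.11) at 56 days. Mitotic members had 19.6, 18.9, 74.9 and 99.3 CPM. The first 2 values were under those of myofibre-rich barcodes (at least 5% of UMIs from fibre genes), which had 29.3, 29.9, 40.1 and 27.8 CPM of mitotic members at median depths of 938 to 1535 UMIs and where 0 of 350 barcodes had 3 mitotic members. At 24 hours the myofibre-rich values rest on 6 and 9 UMIs, with intervals of 10.7 to 63.7 and 13.7 to 56.8 CPM. Whether a mitotic level of that size was background was not tested. S-phase members in the same barcodes had 26.7 to 29.9 CPM, well below the endothelial-like cells.

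The S-phase share of all S-phase and mitotic UMIs in endothelial-like cells was 91.1% (87.8 to 93.7), 91.9% (90.3 to 93.4), 75.0% (71.8 to 78.1) and 68.9% (65.1 to 72.6). The 2 lower shares, at 56 days, went with single cells. Cells with at least 3 distinct mitotic members numbered 0, 0, 1 and 4. The counts of 0 allow a share of up to 0.651% of cells in CON 24 h and 0.203% in IR 24 h, and the others were 0.131% (0.00332 to 0.728) and 0.860% (0.235 to 2.19). These intervals of CON 56 d and IR 56 d overlapped. The cell with most mitotic UMIs held 75.3% of them in CON 56 d and 56.4% in IR 56 d. The cells with fewer than 3 mitotic members had 18.6 and 25.2 CPM of them at 56 days.

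The 1 such endothelial-like cell of CON 56 d had 9204 UMIs, 20 of 21 mitotic members with 143 UMIs, 25 UMIs of Pecam1 and 0 of Cdkn1a. The 4 cells of IR 56 d had 18, 3, 6 and 9 mitotic members with 106, 5, 11 and 19 UMIs. They also had 51, 13, 9 and 2 UMIs of Cdkn1a and 37, 19, 7 and 3 of Pecam1. All 5 cells carried at least 4 endothelial markers and 0 UMIs of Ptprc, the common leukocyte antigen. Cdkn1a UMIs were also found in 358 of all 465 endothelial-like cells of IR 56 d and in 202 of 763 of CON 56 d. Whether a barcode held 1 cell or a doublet was not tested.

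The ratio of mitotic members in endothelial-like cells at 56 days was 1.33 (1.08 to 1.63). Without the 5 cells it was 1.36 (0.886 to 2.08), of like size with an interval that holds 1. It was 2.35 (1.62 to 3.44) without the cell with most mitotic UMIs of each library, and 1.74 with each cell weighted equally. With Stmn1 and Hmgb2 added to the list it was 0.956 (0.853 to 1.07). At 24 hours it was 0.964 (0.647 to 1.47), from 34 and 101 UMIs.

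By gene, 14 members were measured in endothelial-like cells at 24 hours. Of these, Kif23 was at least 1.5-fold higher in IR, where 15% of 10907 measured genes were, and Stmn1 at least 1.5-fold lower, where 6.72% were. Kif23 had 6, 35, 22 and 17 UMIs and a ratio of 1.89 (0.787 to 5.50) at 24 hours, an interval that holds 1. Stmn1 had 81, 163, 103 and 79 UMIs, 46.8, 30.5, 40.6 and 41.7 CPM, with a ratio of 0.653 (0.497 to 0.863) at 24 hours and 1.03 (0.757 to 1.39) at 56 days. Hmgb2 had 160, 132, 176 and 137 CPM and was lower in IR at both times, at 0.820 (0.713 to 0.946) and 0.781 (0.668 to 0.912).

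Pcna in endothelial-like cells had 98, 372, 163 and 119 UMIs in 82, 306, 131 and 96 cells, or 56.6, 69.6, 64.3 and 62.9 CPM. Its ratio was 1.23 (0.983 to 1.55) at 24 hours and 0.978 (0.766 to 1.25) at 56 days, so the libraries did not differ beyond counting error. Mki67 had 1, 0, 32 and 37 UMIs in 1, 0, 4 and 5 cells. Top2a had 2, 1, 30 and 18 UMIs in 2, 1, 2 and 5 cells, and Ube2c 2, 3, 12 and 18 UMIs. Rrm2 had 4, 12, 4 and 8 UMIs and Pclaf 14, 33, 16 and 23. Of these 5 genes only Pclaf had more than 12 UMIs in a library of 24 hours.

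At 56 days 19 members were measured in this class. Pclaf, Mki67, Ube2c and Prc1 (a spindle midzone protein) were at least 1.5-fold higher in IR, and Mcm4, Rrm1 and Cenpf (a centromere protein) at least 1.5-fold lower, where 12.8% of 10121 genes were higher and 12.8% lower. The intervals of Mcm4, 0.566 (0.313 to 0.987), and Rrm1, 0.643 (0.420 to 0.969), lay below 1, and those of the other 5 held 1. Without cells with at least 3 S-phase (Pcna not counted) or mitotic members, 0 of 13 measured members were at least 1.5-fold higher. No interval lay wholly past 1.5-fold at either time.

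**Figure D4:**
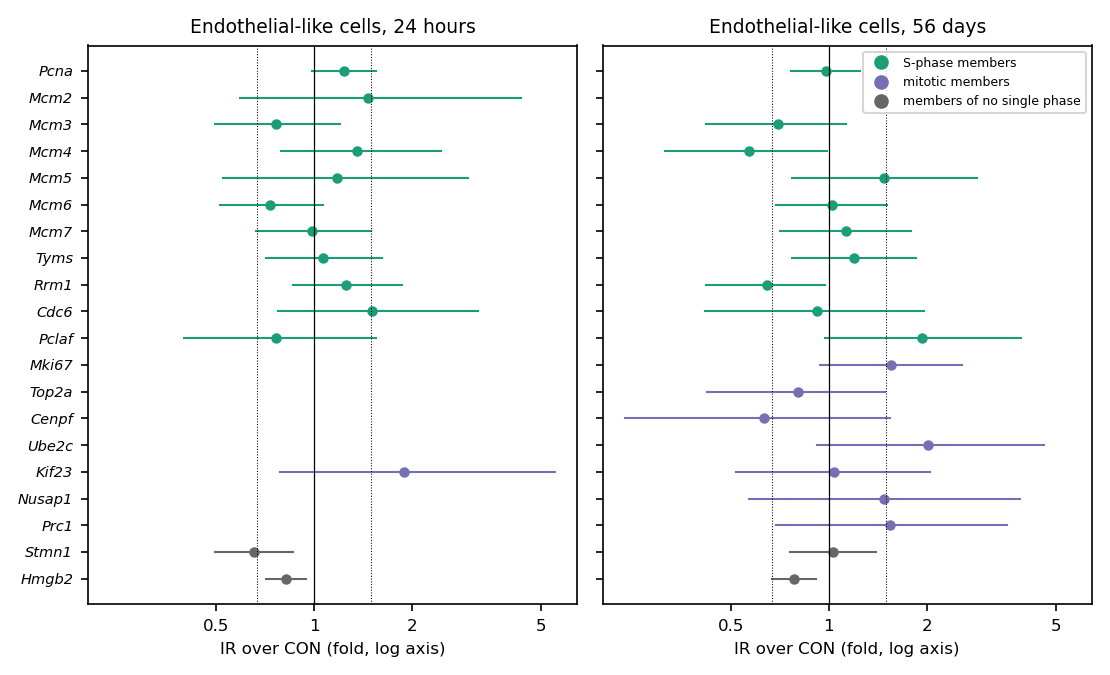
IR over CON of each measured member in endothelial-like cells at 24 hours (left) and 56 days (right), on a log axis; points are ratios, lines 95% counting intervals and dotted lines a 1.5-fold difference. 14 and 19 members are shown, and most intervals cross 1.

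Erythroid-like cells, which carry markers of red cell precursors, held more mitotic UMIs than any other class with all libraries summed. Mitotic members had 2954 and 7751 CPM in CON 24 h and CON 56 d and 6476 in IR 56 d, and S-phase members 1456, 3444 and 4133 CPM, from 49, 90 and 29 cells. IR 24 h had 2 such cells with 16 mitotic UMIs and 1 S-phase UMI, too few to compare. In CON 24 h the B precursor-like cells had a higher mitotic level, 4446 CPM. Cells with at least 3 mitotic members were 24 of 49 (49.0%, 34.4 to 63.7) in CON 24 h, 65 of 90 (72.2%, 61.8 to 81.2) in CON 56 d and 25 of 29 (86.2%, 68.3 to 96.1) in IR 56 d. Summed over cells, CON 56 d had 2.62-fold (2.48 to 2.78) the mitotic and 2.37-fold (2.18 to 2.57) the S-phase level of CON 24 h.

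The shares of the control libraries depended on depth and on the barcode filter. With every cell thinned to 1000 UMIs, the shares of erythroid-like cells with 3 mitotic members were 27.7% (15.6 to 42.6) of 47, 57.6% (46.4 to 68.3) of 85 and 74.1% (53.7 to 88.9) of 27 in CON 24 h, CON 56 d and IR 56 d. The intervals of the 2 control libraries then did not overlap, and without thinning they did. With barcodes limited to 10% mitochondrial UMIs and at least 500 genes, the shares were 80.8% (60.7 to 93.5) in CON 24 h and 80.8% (69.9 to 89.1) in CON 56 d. The intervals of the 2 libraries of 56 days overlapped with and without thinning. The mice of the 2 control libraries differed in age and in the time since their opposite limb was irradiated. Age, that time, day and preparation cannot be told apart.

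Within erythroid-like cells at 56 days the lists lay on opposite sides of the control, with a ratio of 1.20 (1.13 to 1.28) for S-phase and 0.835 (0.795 to 0.877) for mitotic members. The S-phase share of both lists was 33.0% (31.0 to 35.1), 30.8% (29.9 to 31.6) and 39.0% (37.3 to 40.7) in CON 24 h, CON 56 d and IR 56 d. With each cell weighted equally, the S-phase ratio was 1.72 and the mitotic ratio 0.895. Cells with at least 3 members of both lists were 13, 47 and 20, cells with 3 mitotic members alone 11, 18 and 5, and cells with 3 S-phase members alone 0, 2 and 2. In cells with at least 3 mitotic members the median number of mitotic members was 9, 18 and 14 of 21. The median number of S-phase members other than Pcna in these cells was 4, 7 and 10. Pcna was not counted among the distinct S-phase members of a cell.

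By gene, 40 of 40 members were measured in erythroid-like cells at 56 days. Of these 6 were at least 1.5-fold lower in IR, all mitotic, where 27.8% of 4524 genes were, and 4 at least 1.5-fold higher (Mcm7, Gins2, Ccnb2 and Stmn1), where 11.4% were. Both shares are near or under those of all genes. Mki67, with 194, 1700 and 236 UMIs in 24, 70 and 21 cells, or 408, 1564 and 765 CPM in CON 24 h, CON 56 d and IR 56 d, had a ratio of 0.489 (0.425 to 0.561) at 56 days. Tpx2, a spindle assembly factor, had 41, 268 and 35 UMIs and a ratio of 0.460 (0.314 to 0.656). For these 2 members the interval lay wholly past 1.5-fold.

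The B-type cyclins in erythroid-like cells were above the control at 56 days. Ccnb2 had 158, 273 and 447 CPM, with a ratio of 1.64 (1.33 to 2.01), and Ccnb1, cyclin B1, 65.1, 136 and 191 CPM, with a ratio of 1.40, an interval above 1. Ccna2 had 118, 283 and 269 CPM and a ratio of 0.949 (0.736 to 1.21). Ube2c had 605, 1034 and 966 CPM and Top2a 212, 666 and 570, ratios of 0.934 (0.819 to 1.06) and 0.856 (0.722 to 1.01). Rrm2 had 418, 706 and 920 CPM with a ratio of 1.3 (1.13 to 1.50), Pclaf 164, 294 and 360 CPM, and Pcna 183, 408 and 506 CPM. Stmn1 had 271, 532 and 914 CPM, with a ratio of 1.72 (1.49 to 1.98), and Hmgb2 1624, 3826 and 3983 CPM. Of these 3 libraries CON 24 h was lowest for each of these members.

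**Figure D5:**
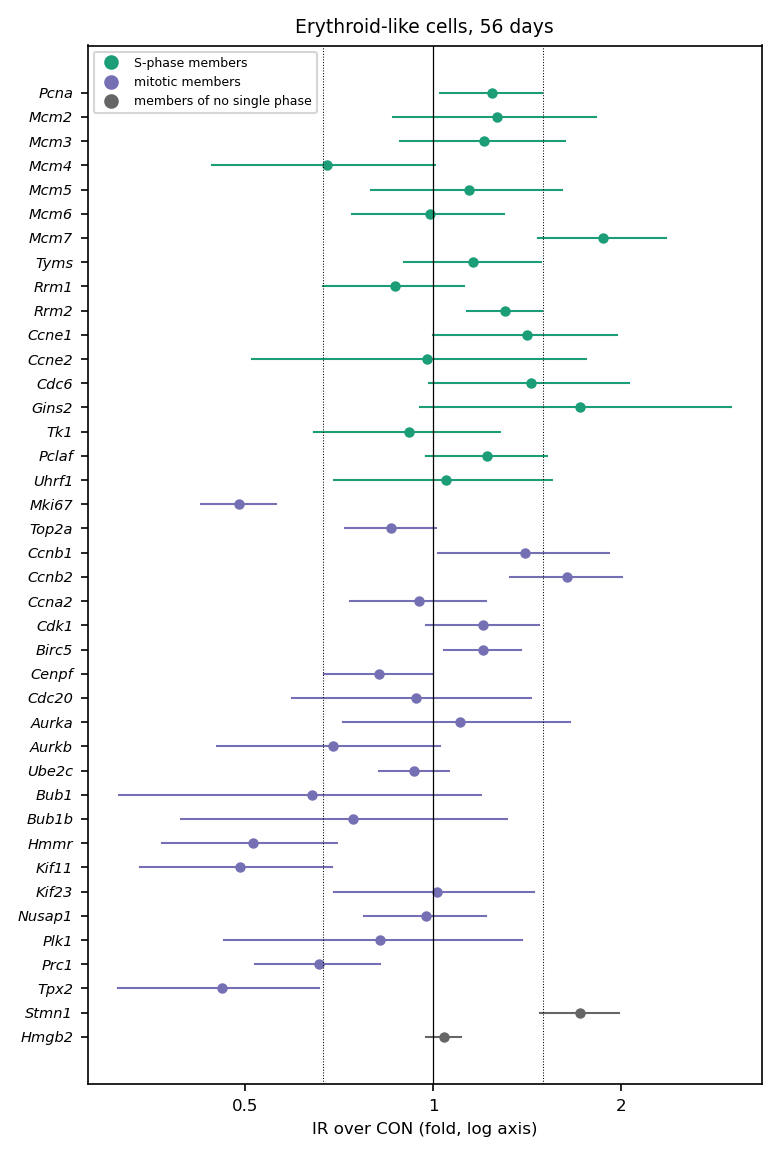
IR over CON of the 40 members in erythroid-like cells at 56 days (29 and 90 cells), on a log axis; points are ratios, lines 95% counting intervals and dotted lines a 1.5-fold difference. The lines of Mki67 and Tpx2 lie wholly left of the dotted line, and 12 of 17 S-phase points lie right of 1.

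In the other marrow-type classes, cells with several mitotic members were counted in both control libraries. B precursor-like cells with at least 3 mitotic members were 11 of 60 in CON 24 h, 0 of 3 in IR 24 h, 3 of 15 in CON 56 d and 1 of 20 in IR 56 d, where that 1 cell, with 55119 UMIs, held 99.7% of the class's mitotic UMIs. Of the myeloid progenitor-like cells 5 of 7, 12 of 12 and 3 of 3 had them in CON 24 h, CON 56 d and IR 56 d, at medians of 25251 to 31012.5 UMIs per cell. Neutrophil-like cells had 4 of 29, 0 of 35, 13 of 226 and 3 of 18. In the 2 control libraries, neutrophil-like cells outside these few had 6.88 and 33.0 CPM of mitotic members. Both values were below the 206 CPM (115 to 339) of IR 24 h, from 15 UMIs, where 0 cells had 3 of them. With all cells counted, the neutrophil-like levels of CON 24 h and CON 56 d were 1601 and 1072 CPM.

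In neutrophil-like cells S-phase members had 235 UMIs in CON 24 h and 8 in IR 24 h, or 950 and 110 CPM. Mitotic members had 396 and 15 UMIs, or 1601 and 206 CPM, and those of IR 24 h lay in 11 cells. Mki67 and Top2a had 56 and 67 UMIs in CON 24 h and 0 and 0 in IR 24 h. The median depth was 5811 and 1927 UMIs, and 4 of the 29 cells held 99.7% of the mitotic UMIs of CON 24 h. The part of depth in this difference was not tested.

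Satellite-like cells, the muscle stem cells, included 0 cells with 3 mitotic members among 31, 68, 74 and 29 cells, which allows up to 9.68%, 4.41%, 4.05% and 10.3% of cells. They had 3, 2, 4 and 1 mitotic UMIs and 0 of Mki67, Top2a or Ube2c, and 31, 28, 54 and 14 S-phase UMIs, at 135, 96.0, 149 and 132 CPM. Pericyte or smooth muscle-like cells had 24.9, 12.3, 27.9 and 16.7 CPM of mitotic members and 0 such cells among 41, 141, 53 and 61. In both classes each mitotic level was at or below that of the myofibre-rich barcodes or had an interval that holds it.

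Fibro-adipogenic progenitor-like cells (FAP-like, the connective tissue progenitors of muscle) had 48, 3, 14 and 1 mitotic UMIs in 46, 70, 101 and 45 cells. In CON 24 h 1 cell held 87.5% of them, and the ratio at 24 hours, 0.0302 (0.00603 to 0.0938), rested on it. S-phase members had 104, 151, 139 and 170 CPM in this class. Schwann-like cells, which insulate nerves, had 6.28, 25.1, 146 and 39.9 CPM of mitotic members, and 1 of 60 cells of CON 56 d held 84.8% of the class's mitotic UMIs there. At 24 hours 5 members were measured in Schwann-like cells, 1 at least 1.5-fold higher (Rrm1) and 3 lower (Pcna, Mcm7 and Stmn1), where 20.5% and 12.9% of 5640 genes were.

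Macrophage or monocyte-like cells with at least 3 mitotic members were 4 of 49 in CON 56 d and 0 of 38 in IR 56 d, which allows up to 7.89%. Mitotic members had 180, 58.2, 967 and 17.5 CPM and S-phase members 530, 146, 807 and 123 CPM. The ratio at 56 days was 0.0181 (0.00586 to 0.0427) for mitotic and 0.152 (0.104 to 0.216) for S-phase members. Mki67 had 57 UMIs in CON 56 d and 0 in IR 56 d, and Stmn1 129 and 1. In CON 56 d the 4 cells held 96.6% of the mitotic UMIs, and they had 16739, 18447, 7383 and 21769 UMIs against a class median of 7781.

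In some libraries 1 cell held most mitotic UMIs of a lymphocyte class. The T-like cells of the controls were otherwise. They had 33 mitotic UMIs in 24 of 139 cells of CON 24 h, with 12.1% in the top cell, and 4 in 4 of 14 cells of CON 56 d. In T-like cells of IR 24 h, 2 of 31 cells had at least 3 mitotic members and 1 of them held 90.5% of the 148 mitotic UMIs. In IR 56 d 1 of 8 T-like cells held 99.6% of 231 mitotic UMIs. Mature B-like cells with 3 mitotic members were 3 of 193, 1 of 106, 3 of 57 and 1 of 41. The cell with most of them held 58.3%, 43.3%, 74.1% and 97.7% of the mitotic UMIs of that class.

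Other genes of the same pathways were taken from lists drawn up with earlier results of these data known, so their counts are no independent evidence. Over all kept cells at 24 hours, where 34.1% of all measured genes were at least 1.5-fold higher and 10.8% lower, 0 of 26 other replication genes were higher and 17 lower, and of 30 other mitosis genes 3 were higher (Ckap2, Gas2l3 and Psrc1) and 25 lower. At 56 days, where 17.3% were higher and 12.5% lower, 0 of 27 and 2 of 30 were higher and 9 and 21 lower. The p53 targets beside Pcna were higher in 11 of 12 genes at 24 hours and 10 of 12 at 56 days.

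In endothelial-like cells at 24 hours, where 15% of all measured genes were higher and 6.72% lower, 3 of 18 other replication genes were higher and 2 lower, and 2 of 12 other mitosis genes higher and 1 lower, shares near those of all genes. Of 20 G1 cyclins, their kinases and E2F, RB and DREAM genes, 6 were higher, Ccnd1 (cyclin D1), Rb1 and Rbl2 among them, and 1 lower. The p53 targets were higher in 12 of 12 genes. Of 5 measured CDK inhibitors Cdkn1a was higher and Cdkn1c lower. At 56 days, where 12.8% of genes were higher and 12.8% lower, 10 of 11 p53 targets were higher, and of the CDK inhibitors Cdkn1a was higher and Cdkn1b and Cdkn1c lower. Of the 20 G1 cyclin, kinase, E2F, RB and DREAM genes measured at 56 days, 6 were higher and 4 lower. Ccnd1 was again higher, Rb1 was lower and Rbl2 was in neither group. The S-phase members had a median log2 ratio of 0.17 over 11 measured at 24 hours, against 0.06 over all genes measured there, and 0.0019 over 10 at 56 days, against 0.02. In erythroid-like cells Cdkn1a had 5, 0, 9 and 1 UMIs.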

How the data were processed

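Single cells of 4 hindlimb preparations were measured in 4 droplet libraries, 1 for each group. The authors deposited raw UMI counts per gene and cell barcode, made with Cell Ranger 5.0.0 on mm10 per the submitters' processing notes, and no cell annotation was used. Totals were 4543545 to 9751722 UMIs per library after the filter, so intervals over UMIs cover counting error alone. UMIs were summed by class and library with Python 3.11.15, numpy 2.4.6, pandas 2.3.3 and scipy 1.17.1. Levels carry exact Poisson intervals, ratios exact conditional binomial intervals and shares exact Clopper-Pearson intervals, all at 95%. A count of 0 cells allows 3 cells. Counts of distinct S-phase members in a cell leave out Pcna. No test between groups was made.

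A cell was classed by at least 3 of its class's markers (146 markers of 18 classes), or as myofibre-rich by at least 5% of UMIs from fibre markers. The number of 3 and the pairs of related classes were set after the markers' distribution was seen and without the 40 genes. No doublet caller was run, 313 cells with 3 markers of unrelated classes were set apart as mixed, and free RNA was not removed. Ratios were formed where both libraries had at least 25 cells. The genes named in full were Pcna, Mki67, Top2a, Stmn1, Hmgb2, the 3 S-phase and 3 mitotic members with most UMIs, and members whose interval lay wholly past 1.5-fold, of which those of all kept cells are given as counts and extremes. Other members in the text illustrate ranges and were chosen after their values were seen. The 40 members and all lists were chosen with earlier results of these data known. Alternatives changed the barcode filter, the gate, the weighting of cells, the scaling, the lists and the thresholds, and classes were rebuilt from clusters made with igraph 0.11.9 and leidenalg 0.10.2. The summing and interval code was tested on simulated data. Promoter sequences are RefSeq's on GRCm38.p6.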

Additional observations from a re-analysis of the deposited data

Results flagged for a closer look

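In the groups of cells below, the level in IR over CON was under 1 at 24 hours and above 1 at 56 days with counting intervals that both leave out 1, and the difference between times was not tested. In marrow-type cells the S-phase ratio was 0.0851 at 24 hours and 1.60 at 56 days, and the mitotic ratio 0.111 and 1.14. The 24-hour values rest on 40 cells of IR 24 h, 35 of them neutrophil-like. At 56 days the mix of classes also differed, with 226 of 343 cells neutrophil-like in CON and 18 of 70 in IR. Within erythroid-like cells the 56-day ratios were 1.20 for S-phase and 0.835 (0.795 to 0.877) for mitotic members. In stromal cells (endothelial-like, FAP-like, tenocyte-like, satellite-like, pericyte-like and Schwann-like together) the mitotic ratio was 0.491 at 24 hours and 1.22 at 56 days. There 1 cell held 46.7% of the mitotic UMIs in CON 24 h, 57.4% in CON 56 d and 52.7% in IR 56 d. In cells of no class the S-phase ratio was 0.134 at 24 hours and 4.58 at 56 days, from 66, 12, 5 and 28 UMIs in the order of the libraries.

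Cells of no class are among all kept cells and were not described as a class in the report. Their S-phase level in IR 56 d, 323 CPM in 40 cells, was above the 70.5 CPM in 46 cells of CON 56 d.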

How the results depend on the processing

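No paired analysis was possible because each group is 1 library and the ratios come from no test. Of 226 values recomputed under 16 settings for 35 results, 161 stayed within the limits set for a change, 63 moved and 2 changed direction. The 2 were the S-phase ratio of all kept cells at 56 days, 1.07 without cells with several mitotic members, and the endothelial-like mitotic ratio at 56 days, 0.956 with Stmn1 and Hmgb2 counted as mitotic. Leaving out marrow-type classes or cells with several mitotic members was chosen after seeing the data. The gate with 1 more marker, the absence of a barcode filter, the classes rebuilt from clusters and the other scaling moved 0 values. Gate and clusters cannot change a value over all kept cells. Leaving out cells with several mitotic members cannot change endothelial-like ratios at 24 hours, where there were 0 such cells. These fixed values are among the 161. Gate and clusters gave the same class to 5165 of 5296 cells that had one by both. The causes of the other changes were not tested.

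With each cell weighted equally, S-phase ratios were 0.529 and 0.965 over all kept cells at 24 hours and 56 days and 1.72 in erythroid-like cells, and mitotic ratios 0.107, 0.524 and 0.895, with 1.74 in endothelial-like cells at 56 days. Without the cell with most UMIs of the list, the erythroid-like S-phase ratio was 1.28 and the mitotic ratios 0.0462 and 0.462 over all kept cells, 2.35 in endothelial-like cells and 0.769 in erythroid-like cells at 56 days. Without cells with several mitotic members, S-phase ratios were 0.957 over all kept cells at 24 hours and 1.67 in erythroid-like cells, and mitotic ratios 0.486, 0.753 and, in erythroid-like cells, 0.984. Without the marrow-type classes the 24-hour ratios were 0.837 and 0.475, and those of 56 days, 0.767 and 0.497, stayed close to 0.743 and 0.492. Few cells held most of the remaining mitotic UMIs of CON 56 d, as given above.

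With Stmn1 and Hmgb2 as mitotic members, mitotic ratios were 0.171 and 0.537 over all kept cells and 0.939 in erythroid-like cells, and S-phase shares were 46.9%, 54.3%, 43.6% and 44.2% in endothelial-like cells and 23.1%, 22.1% and 26.6% in erythroid-like cells of CON 24 h, CON 56 d and IR 56 d. Without Pcna the S-phase ratio at 24 hours was 0.335, and S-phase shares were 88.5%, 68.2% and 61.3% in endothelial-like cells of IR 24 h, CON 56 d and IR 56 d and 30.1%, 28.1% and 35.9% in erythroid-like cells.

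With at least 2 mitotic members, cells passing were 6.59% of CON 24 h and 0.551% of IR 24 h over all kept cells and 71.4% and 83.3% of erythroid-like cells of CON 24 h and CON 56 d. Thinned to 1000 UMIs they were 2.54% and 4.74% of all cells of CON 24 h and CON 56 d and 27.7% and 57.6% of erythroid-like cells. With at most 10% mitochondrial UMIs and at least 500 genes, 80.8% of erythroid-like cells of CON 24 h passed, as did 80.8% of CON 56 d.

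Counts of members past 1.5-fold moved when cells with several S-phase or mitotic members were left out: 5 lower and 3 higher at 24 hours and 4 lower at 56 days over all kept cells, 3 higher and 2 lower at 24 hours and 0 higher at 56 days in endothelial-like cells, and 0 and 0 of 1 measured in erythroid-like cells. At a fold of 2 they were 11 lower at 56 days over all kept cells, 0 in either direction at both times in endothelial-like cells, and 3 lower and 0 higher in erythroid-like cells. Measured at 10 UMIs, endothelial-like cells had 2 higher at 24 hours and 7 higher and 5 lower at 56 days.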
